A study of Danio rerio with 24 samples.

Results

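Crystallins are the abundant soluble proteins of the vertebrate eye lens, and their transcripts were counted here in pools of whole zebrafish embryos. Rows of the gene count table were taken when the gene name began with cryaa, cryab, cryba, crybb, crygm, crygn or crygs, which leaves out the cryptochromes, and were kept with at least 10 counts in 4 or more libraries. By name 56 of the 37660 genes in the table matched, and 46 were kept, namely 2 alpha, 13 beta and 31 gamma crystallins. All 46 were among the 27010 genes that entered the tests.

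The alpha crystallins belong to the small heat shock proteins and act as chaperones that hold damaged lens proteins in solution. The beta and gamma crystallins share a common fold, and packed at very high concentration in lens fibre cells they give the lens its refractive power. The gamma M crystallins are the methionine-rich form that fish use to build a dense, nearly spherical lens, and the zebrafish genome carries many tandem copies of the M2 type. Fibre cells lose their nucleus and organelles as they mature, so crystallin transcripts come from the outer, younger fibres and, for the alpha class, also from the lens epithelium.

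The study had 24 libraries in 6 groups of 4, each library made from about 50 embryos labelled 3 days post fertilisation, and labelled as biological quadruplicates. Wild-type embryos (WT) and knockout embryos (KO) were each given DMSO, the solvent control, or 0.5 µM ML233 for 3 h or 24 h. ML233 is a small molecule known as an apelin receptor agonist, and the title of the study names it as a tyrosinase inhibitor. The sample titles give the KO as an apelin receptor knockout, the growth protocol describes embryos mutant in aplnra and aplnrb from the AB strain with wild-type controls of common grandparents, and the design text speaks of apelin instead, so the group is called KO as labelled. DMSO libraries carry the time 0 h, and whether they were collected with the 3 h or the 24 h embryos is not given in the sources used here. Where the age at collection, the number of lens cells and the RNA per lens cell differ, a count from whole embryos cannot tell them apart.

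The libraries held 28950937 to 43352202 counts assigned to genes. Levels are given below in CPM, the count of a gene relative to the total of its library, with totals scaled by the TMM method. Crystallins made up 0.386% to 1.18% of all counts in a library. Transcripts of aplnrb were at 21.4 to 27.0 CPM in WT and at 9.70 to 17.7 CPM in KO, so the KO label and this receptor transcript moved the same way, although small indels need not lower a transcript.

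Before any comparison, 6 KO libraries stood apart: DMSO replicates 2 and 4, 3 h replicates 3 and 4, and 24 h replicates 2 and 4. On the first principal component, computed without crystallins and without the marker lists used here (26868 genes, 41.5% of variance), they lay at 36.7 to 143 while the other 6 KO libraries lay at -47.3 to -27.7 and the 12 WT libraries at -50.6 to 44.05. Their aplnrb level was 9.70 to 12.4 CPM against 16.1 to 17.7 CPM in the other KO libraries. Within WT, replicates 1 and 2 of each treatment lay at -50.6 to -42.7 and replicates 3 and 4 at -5.34 to 44.05. The labels give no batch for either division, so each result below is also given without the 6 KO libraries or within the WT replicates where that changes it.

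The lens message of these embryos was carried by a beta and gamma core. Per kilobase of gene model, the scale on which genes can be set side by side, crybb1 was highest at a mean of 876 CPM per kb over 24 libraries, followed by crygm2d13 at 698, crygn2 at 498 and one of the crygm2d8 rows (ENSDARG00000116164) at 471. The next beta members were cryba1l1 at 344, crybb1l2 at 308 and cryba1b at 304 CPM per kb. Beta crystallins are structural lens proteins that form oligomers, and acidic (A) and basic (B) members were both in this leading set. The alpha A chaperone gene cryaa stood far lower, at 21.9 CPM per kb, and cryabb, an alpha B gene, was close to the count rule at 0.0733 CPM per kb.

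Part of the rows carried nearly all of each class. The leading 8 of 13 beta members held 99.4% of beta CPM, the leading 14 of 31 gamma members 91.8% of gamma CPM, and cryaa alone 99.4% of alpha CPM. By mean CPM, with no correction for length, crybb1 ranked 124, crybb1l1 125 and crybb1l2 133 among all genes. In all 11 members were within the top 500 genes and 0 within the top 100. The beta members crybb2 and crybb3, and the gamma S gene crygs1, were each below 1 CPM in every library.

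Of the 10 matching rows that were not kept, crygm6 had no count in any library and crygm7 and crygs2 never passed 2. The gamma M genes crygm2a and crygm2f and the gamma S genes crygs3 and crygs4 never passed 6 counts. The other alpha B gene, cryaba, never passed 9. Nearest to the rule were crygm4, with 10 counts in 2 libraries, and crygm1, in 3. Just inside the rule, cryabb reached 10 counts in 4 libraries and ranged from 1 to 29 counts. At this depth these rows carry little information.

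The gamma class was largely a single gene cluster. Of the 31 gamma rows 26 lay on chromosome 9, and the 20 crygm2d rows stood together between bases 22091161 and 22339582, a span of 248 kb, all on the minus strand (GRCz11, per the submitters' processing notes; the table lists gene models without exon positions). The 20 rows carry 18 names, since crygm2d8 and crygm2d9 each occur under 2 gene identifiers. The models are short, 623 to 2177 bases, and copies of this cluster are alike in sequence, so reads may be shared or split among them, and how multiply mapped reads were counted is not given in the sources used here. The models of crygm2d14 and crygm2d16 also overlap by 1044 bases on the same strand, and cryba1a overlaps crybb1l3 by 8252 bases on the opposite strand. The library kit marks strand with dUTP, but the strand setting of the counting is not given, so single values of these members are uncertain. Sums over the class are spared reads divided among members, but not reads left out or counted elsewhere. An unnamed locus on an alternate contig, described as gamma crystallin M2, had a mean of 399 CPM outside the gamma sum.

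**Figure D1:**
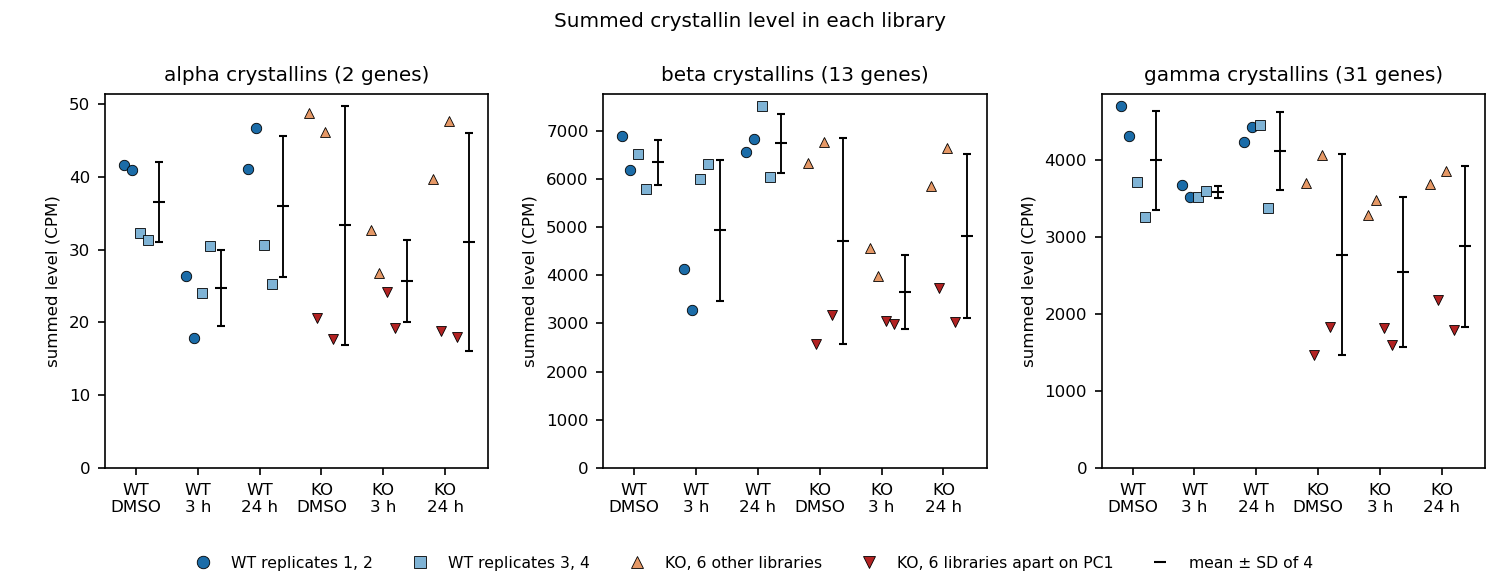
Summed level (CPM) of the alpha, beta and gamma crystallins in each of 24 libraries by group; points are libraries, marked by WT replicate pair or by whether a KO library stood apart, and bars give the mean ± SD of 4. The 6 KO libraries apart lie at 2577 to 3741 CPM for beta and 1468 to 2178 CPM for gamma crystallins, below all other libraries for gamma.

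Summed over members, the beta crystallins stood at 6344 ± 474 CPM in WT DMSO (SD, n = 4), 4932 ± 1458 CPM in WT at 3 h and 6738 ± 617 CPM in WT at 24 h. The KO groups gave beta sums of 4716 ± 2140, 3650 ± 764 and 4817 ± 1707 CPM in the same order (SD, n = 4 each). Group means of KO were lower at each treatment, but the SD inside the KO DMSO group exceeded its gap to WT. Gamma sums were 3995 ± 638, 3584 ± 74.7 and 4121 ± 506 CPM in WT and 2769 ± 1306, 2547 ± 971 and 2879 ± 1046 CPM in KO (SD, n = 4 each). Alpha sums, which are cryaa almost alone, were 36.5 ± 5.47, 24.7 ± 5.26 and 35.9 ± 9.72 CPM in WT and 33.3 ± 16.4, 25.7 ± 5.62 and 31.0 ± 15.0 CPM in KO (SD, n = 4 each). In both genotypes and for alpha, beta and gamma sums alike, the 3 h group had the lowest mean of its genotype.

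The beta to gamma balance was steady in most libraries. Gamma crystallins gave 34.8% to 40.9% of crystallin CPM except in 4 libraries, all of them at 3 h. These were WT 3 h replicates 1 and 2, with 46.9% and 51.7%, and KO 3 h replicates 1 and 2, with 41.7% and 46.4%.

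**Figure D2:**
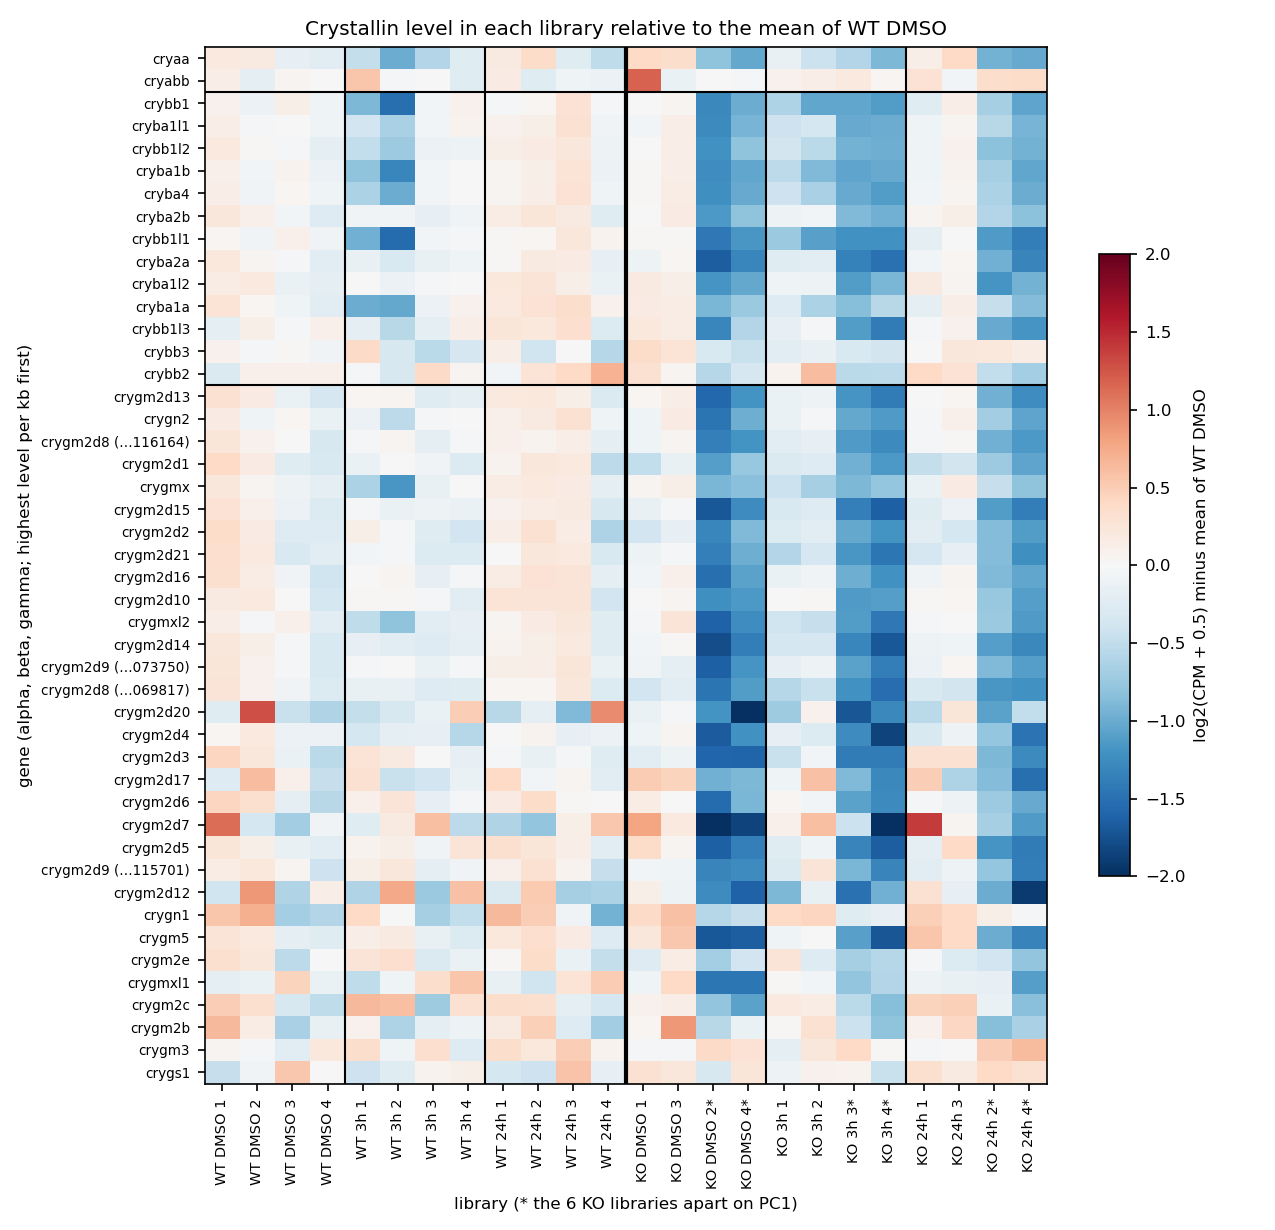
Level of each of the 46 crystallins (rows, by class and then level per kb) in each library (columns) as log2(CPM + 0.5) minus the mean of WT DMSO; columns marked * are the 6 KO libraries apart. Most beta and gamma rows are low across those 6 columns, and a beta block with cryaa, crygmx and crygmxl2 is low in WT 3 h replicates 1 and 2.

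The first question of the design is what ML233 does within a genotype. Over all 4 libraries a group, no crystallin passed the test at 3 h or 24 h in WT or in KO. The test was edgeR's quasi-likelihood test with Benjamini-Hochberg adjustment, called at an adjusted p under 0.05, and the share of all tested genes called was 0% in each of these 4 comparisons. At an unadjusted p under 0.05 there were 0 crystallins in each of them, against 0.929% to 2.82% of all tested genes, and DESeq2 called 0 as well. The median log2 fold change of the 46 crystallins was -0.15 in WT at 3 h and -0.16 in KO at 3 h, next to 0.0040 and 0.0019 for all genes. By class it was -0.34 for beta in both genotypes, and -0.11 in WT and -0.06 in KO for gamma. Single libraries moved these medians, which carry no test. The beta median at 3 h ran in WT from -0.39 to -0.20, the latter without 3 h replicate 2, and in KO from -0.52 without DMSO replicate 2 to -0.15 without DMSO replicate 3 or 1. The gamma median ran in WT from -0.20 without DMSO replicate 4 to -0.01 without DMSO replicate 1, and in KO from -0.33 without 3 h replicate 2 to 0.15 without DMSO replicate 3. At 24 h the median over crystallins was 0.05 in both genotypes.

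The crystallin with the smallest p in WT at 3 h was cryaa, the alpha A chaperone gene on chromosome 1 (29096881 to 29100923). WT DMSO replicates 1 to 4 had 41.4, 40.9, 32.1 and 31.2 CPM of cryaa, and the 3 h replicates had 25.9, 17.8, 24.0 and 30.5 CPM. All 4 libraries at 3 h were below all 4 in DMSO, replicate 4 by little, which among the 46 held also for crygm2d4 and for 1.25% of all tested genes. The fitted log2 change of cryaa was -0.57, with an SE of 0.33 and an edgeR adjusted p of 1.00. At 24 h cryaa was at 40.9, 46.6, 30.5 and 25.2 CPM, which spans the DMSO values.

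In KO at 3 h the smallest p belonged to crybb1l1, a beta B1-like gene on chromosome 14 (46301973 to 46310549). KO DMSO replicates 1 to 4 had 1152, 420, 1159 and 508 CPM of this transcript, KO 3 h replicates 678, 537, 494 and 490 CPM. DMSO replicates 2 and 4, which are libraries apart, lay beside the 3 h values, so the groups overlapped. Its fitted log2 change was -0.56, with an SE of 0.34 and an edgeR adjusted p of 1.00. The members with the smallest p at 24 h were crygm3 in WT, at a log2 fold change of 0.56, and crygm2d3 in KO, at 0.48, and neither passed.

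The 3 h values were not alike within WT. For crybb1l1 the CPM of replicates 1 to 4 were 1169, 1083, 1224 and 1084 with DMSO alone, 582, 391, 1094 and 1123 after 3 h and 1158, 1166, 1326 and 1193 after 24 h. Replicates 1 and 2 at 3 h were the lowest WT values by far, and replicates 3 and 4 lay among the controls. The most expressed beta gene, crybb1 (chromosome 10, 44021147 to 44027391), had the same layout, with CPM of 1170, 1020, 1204 and 1037 in controls, then 590, 387, 1068 and 1173 after 3 h and 1078, 1130, 1354 and 1083 after 24 h.

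**Figure D3:**
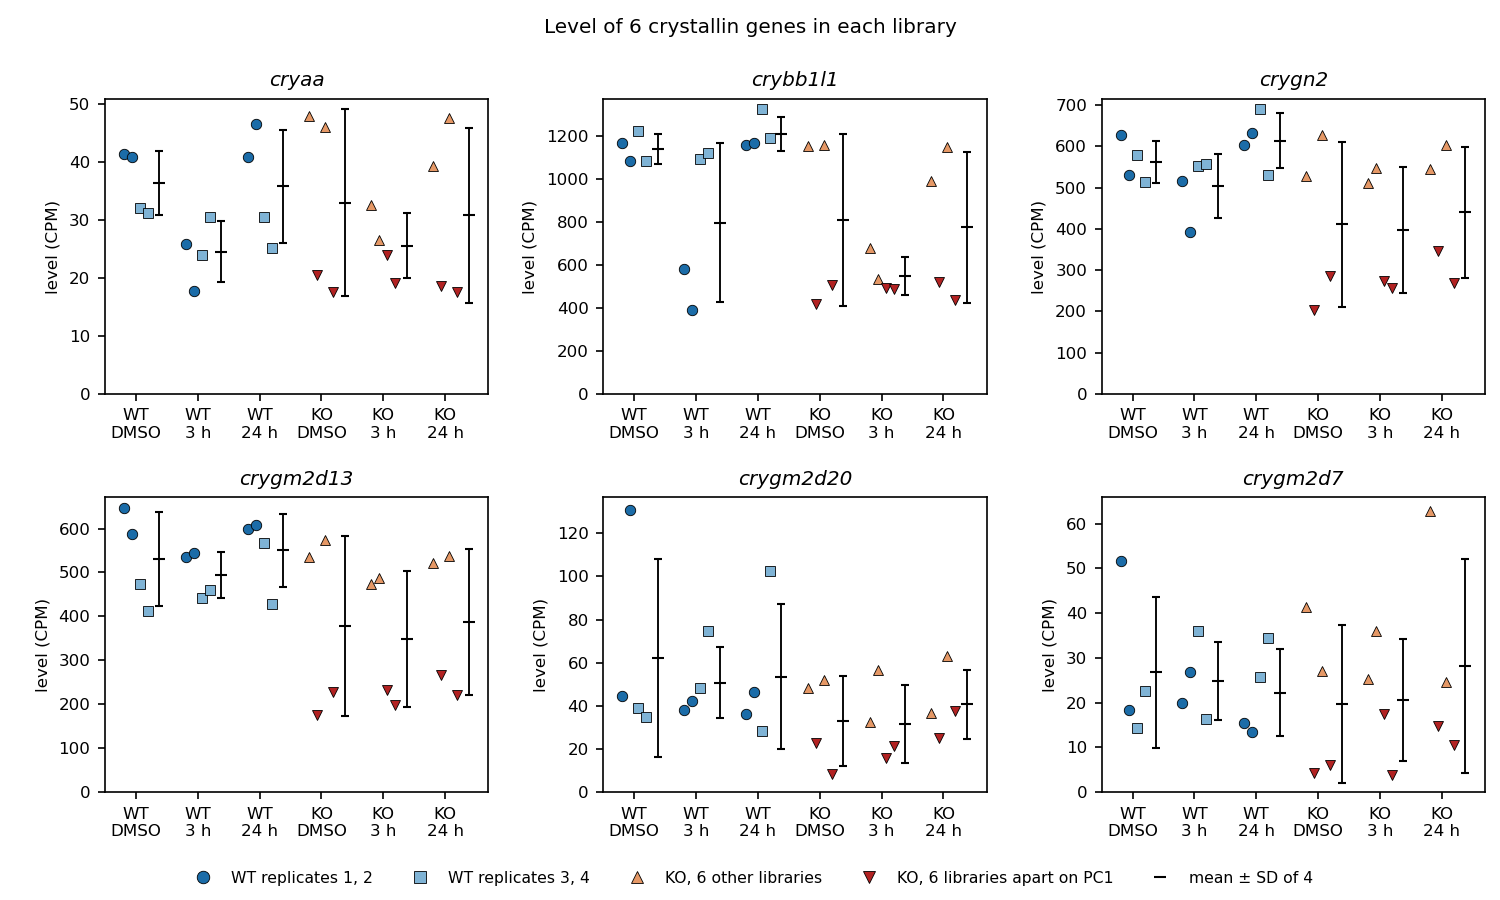
Level (CPM, from 0) of 6 crystallin genes in each library by group, with points marked by WT replicate pair or KO set and bars giving mean ± SD of 4. In crybb1l1 WT 3 h replicates 1 and 2 are at 582 and 391 CPM against 1083 to 1224 CPM in WT DMSO. In crygm2d13 the same 2 libraries are at 534 and 543 CPM. DMSO replicates 1 and 2 are at 648 and 587 CPM of crygm2d13, and DMSO replicates 3 and 4 at 474 and 413 CPM.

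A fit to WT replicates 1 and 2 alone, chosen after seeing the data and resting on 2 libraries a group, put 14 of 44 tested crystallins below the threshold at 3 h, against 1.13% of all genes called in either direction. They were 8 beta, 5 gamma and 1 alpha member and all 14 were lower. Among the beta members called, cryba1a had a log2 fold change of -1.31, crybb1l1 of -1.21 (SE 0.13, edgeR adjusted p = 0.00157, 2.32-fold lower), crybb1 of -1.17, cryba1b of -1.06, cryba4 of -0.83 and crybb1l2 of -0.73. The alpha member called was cryaa, with a log2 fold change of -0.92 (SE 0.13, adjusted p = 0.00673 by edgeR). Among gamma members crygmx, at -1.03, and crygmxl2, at -0.71, went with the beta genes.

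The crygm2d cluster moved less in the same 4 libraries. Its 20 members had a median log2 fold change of -0.21 with 3 called, the 10 tested gamma members outside it -0.27 with 2 called, and the 13 beta members -0.56 with 8 called. Whether the beta and the crygm2d members differed was not tested. The top cluster member crygm2d13 had 648, 587, 474 and 413 CPM in the WT controls and 534, 543, 441 and 460 CPM after 3 h. Its groups of 4 overlapped, though within replicates 1 and 2 both 3 h values lay below both controls. For crygn2, a gamma N crystallin, the WT values after 3 h were 517, 392, 552 and 557 CPM beside 628, 532, 578 and 514 CPM in controls.

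Replicates 3 and 4 of WT fitted alone gave 0 called crystallins at 3 h, with 0% of genes called, 0 at an unadjusted edgeR p under 0.05 and a smallest adjusted p of 0.768. DESeq2 was not run on that subset. Their median log2 fold change was 0.0027 for beta members and 0.06 for the crygm2d members. Counted without a model, both 3 h libraries lay below both DMSO libraries for 33 of 46 crystallins within WT replicates 1 and 2 (22.1% of all tested genes) and for 4 of 46 within replicates 3 and 4 (21.9%).

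In KO the 6 libraries not apart gave a like picture. Fitted alone, they called 3 crystallins lower at 3 h, with 0.123% of all genes called in either direction. These were crybb1l1 with a log2 fold change of -0.93 (SE 0.11, edgeR adjusted p = 0.0156), cryba1b at -0.78 (SE 0.12, edgeR adjusted p = 0.0486) and cryba4 at -0.62 (SE 0.09, edgeR adjusted p = 0.0486). All 3 were among the 14 of WT replicates 1 and 2, which is 100% of the 3 and 21.4% of the 14. The 2 fits share no library, but both sets were picked after seeing the data and hold 2 libraries a group. The overlap is therefore not an independent replication. Medians in the KO fit were -0.53 for beta, -0.18 for the crygm2d cluster and -0.28 for other gamma members. Both 3 h libraries lay below both DMSO libraries for 27 of 46 crystallins (18.2% of all tested genes). A joint fit to these 6 KO libraries and WT replicates 1 and 2, also chosen after seeing the data, called 6 crystallins lower in KO (0.358% of genes) and 11 lower in WT (0.328%).

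The 6 KO libraries apart showed no such fall. Fitted alone they called 0 crystallins at 3 h, 0% of genes being called in all, with 1 crystallin at an unadjusted edgeR p under 0.05, and DESeq2 was not run there. Their beta median was 0.07, crybb1l1 had a log2 fold change of 0.09 and 0 of 46 members had both 3 h libraries below both DMSO libraries (16.5%). In these libraries the DMSO level of crybb1l1 was already 420 to 508 CPM.

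Whether the 3 h response differed between the sets was tested directly in one model. It called 0 of 45 tested crystallins in WT (0.0224% of genes called) and 0 of 46 in KO (0.022%). At an unadjusted edgeR p under 0.05 there were 14 crystallins in WT and 12 in KO, and DESeq2 was not run for this contrast. Of all tested genes, 2144 of 26792 in WT and 1221 of 27273 in KO were at that threshold. The median difference in log2 response, replicates 1 and 2 minus 3 and 4 in WT, was -0.37, and libraries not apart minus apart in KO, -0.30. The smallest adjusted p were 0.113 for cryba1a, with a difference of -1.46 (SE 0.25), in WT and 0.163 for crybb1l1, with -1.01 (SE 0.18), in KO. The same contrast at 24 h gave median differences of -0.13 in WT and -0.34 in KO, with 0 of 45 and 0 of 46 crystallins called (0% of genes in each) and 4 and 7 at an unadjusted edgeR p under 0.05. In KO the median difference over crystallins was thus about as large at 24 h as at 3 h. Of all tested genes, 1013 of 26792 in WT and 4564 of 27273 in KO had an unadjusted edgeR p under 0.05 at 24 h. The 7 of 46 crystallins in KO at 24 h were no larger a share than that of all genes. The division of the 3 h response by set did not pass correction, and it was picked because it was seen.

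**Figure D4:**
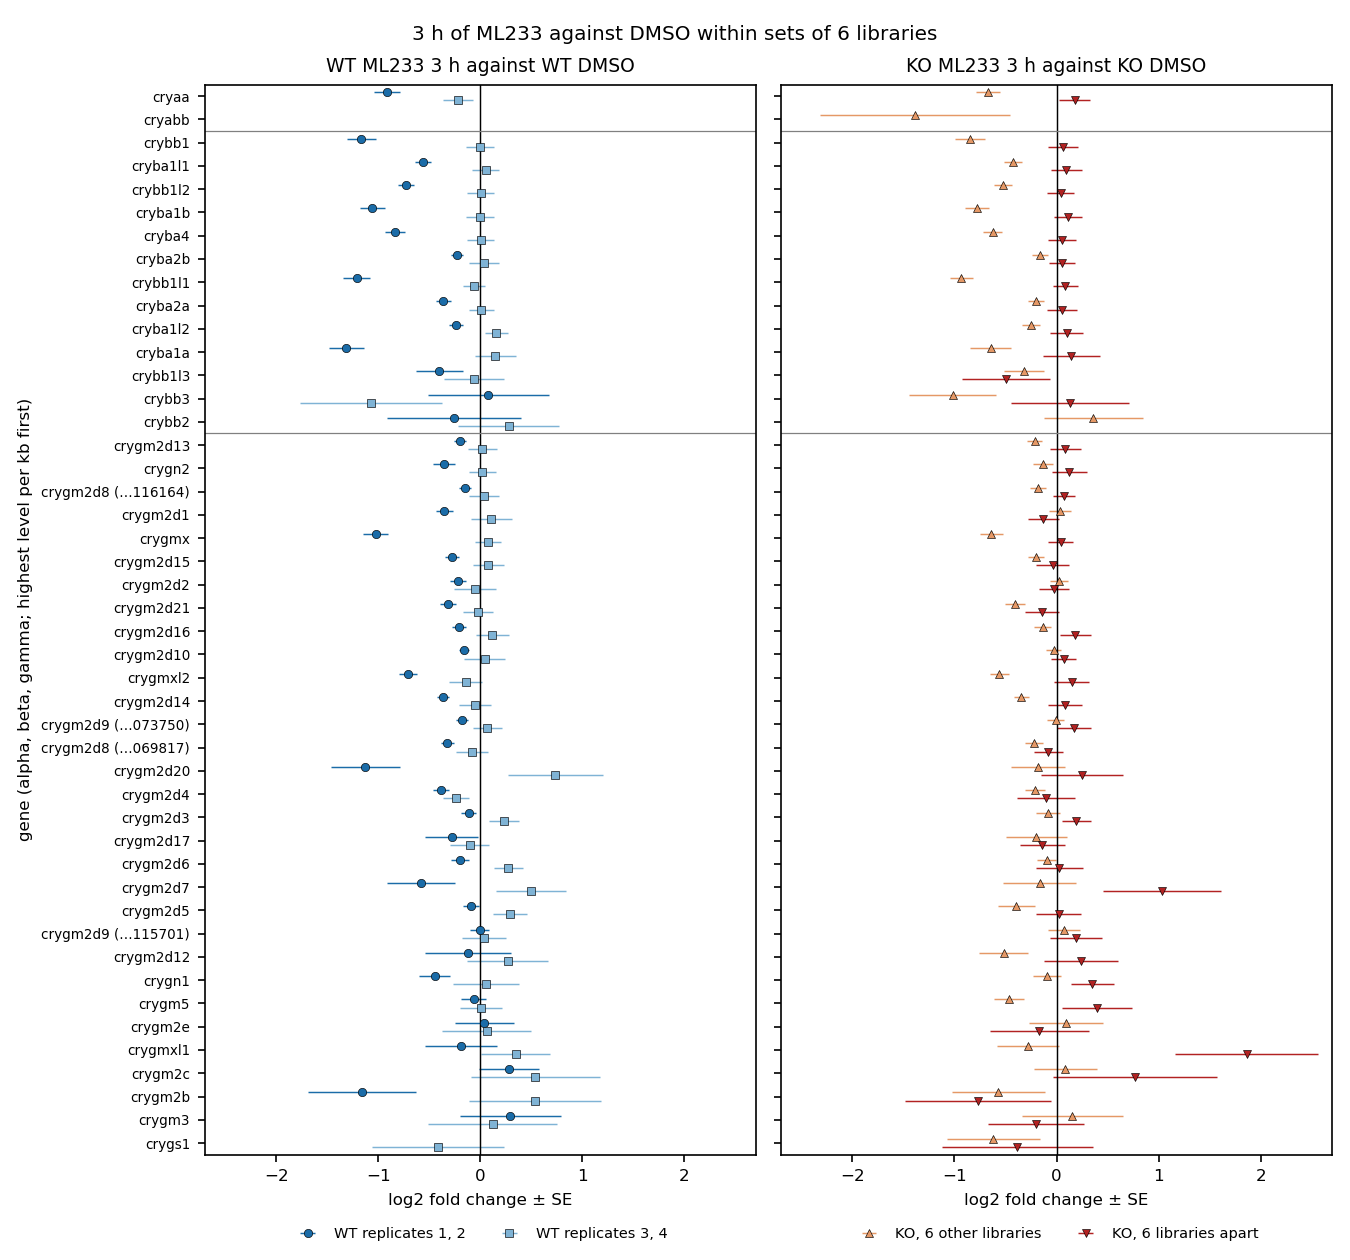
Log2 fold change (± SE) of each crystallin at 3 h of ML233 against DMSO, fitted within sets of 6 libraries: WT replicates 1 and 2 or 3 and 4 (left), KO libraries not apart or apart (right). In WT replicates 1 and 2 the beta median is -0.56, while replicates 3 and 4 give a beta median of 0.0027.

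Beside the 3 h fall, other eye transcripts were also lower in the same libraries. The summed lens markers other than crystallins (24 genes of fibre membrane, filament and lens transcription factors, such as mipa and lim2.1) were at 659 to 750 CPM in WT 3 h replicates 1 and 2 against 873 to 941 CPM in their DMSO pair, and at 729 to 755 CPM against 849 to 893 CPM in the KO libraries not apart. The 18 photoreceptor and pigment epithelium markers were at 7268 to 7976 CPM against 9481 to 10345 CPM in the WT pair. Skeletal muscle sums were lower too in the WT pair, at 25058.4 and 24642.2 CPM against 27508.5 and 26819.3 CPM. They overlapped in the KO libraries not apart, and cornea and skin sums overlapped in the WT pair. Over all 4 libraries a group, 0 lens and 0 photoreceptor markers were called at 3 h in WT or KO. How far a common shift in eye tissue or in age of the pools enters the crystallin values was not tested.

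At 24 h the levels lay at those of DMSO. In WT replicates 1 and 2, 24 h against 3 h called 15 crystallins higher (1.67% of genes in either direction), of which 12 were also among the 14 that fell at 3 h, 80% of the 15 and 85.7% of the 14. These counts share the 3 h libraries and so are 1 observation, not 2. Over all 4 libraries a group, 24 h against 3 h called 0 crystallins in WT and 0 in KO (0% of genes in each), and DESeq2 also called 0. At an unadjusted edgeR p under 0.05 there was 1 in WT (1.38% of all tested genes), cryba1a at a log2 fold change of 0.72. In KO there were 0 (2.43%), and crybb3 had the smallest p, at a log2 fold change of 0.88. All 4 libraries at 24 h lay above all 4 at 3 h for crybb1l1, crybb1l2, cryba1a and crygm2d4 in WT (0.659% of all genes) and for crybb3 and crygs1, both near the count limit, in KO (0.74%).

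The second question of the design is whether KO differed from WT. Treatment by treatment, edgeR called 0 crystallins in DMSO (0.148% of genes called), 0 at 3 h (0.148%) and 0 at 24 h (0.459%), and DESeq2 also called 0 in each. At an unadjusted edgeR p under 0.05 there were 3, 3 and 4 of 46 crystallins, all gamma members and all lower in KO. Of all tested genes 10.7%, 12% and 14.6% were at that threshold in either direction, so these crystallin counts were not above the share of all genes. Median log2 fold changes were -0.45, -0.46 and -0.48, and without the 6 KO libraries apart 0.05, -0.08 and -0.11. All 4 KO libraries lay below all 4 WT libraries for 0 crystallins in DMSO (3.41% of all genes), for 5 crygm2d members at 3 h (2.93%) and for crybb1l1 and 2 crygm2d members at 24 h (2.87%). The smallest adjusted p were 0.285 in DMSO and 0.293 at 3 h, both for the crygm2d8 row ENSDARG00000069817, and 0.189 at 24 h for crygm2d1.

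Averaged over the 3 treatments, 6 crystallins were called lower in KO and 0 higher, where 6.29% of all genes were called lower, 9.39% higher and 15.7% in either direction. A share of 6 in 46 is larger than the 6.29% called lower and smaller than the 15.7% called in either direction. The members of a cluster are also not independent. All 6 were gamma members of the chromosome 9 cluster. The median over the 46 was -0.46, against -0.0072 for all genes, and 41 of 46 were below 0. No beta member passed, the nearest being cryba1l1 at an edgeR adjusted p of 0.0526. At an unadjusted edgeR p under 0.05 there were 9 beta and 22 gamma members, where 29.2% of all tested genes were at that threshold. Libraries of the 3 treatments may come from the same clutches, in which case these p-values are too small.

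The largest of the 6 was the crygm2d8 row ENSDARG00000069817. In WT its CPM were 278, 244, 220 and 191 in controls, 208, 209, 192 and 196 after 3 h, and 237, 238, 270 and 191 after 24 h. The KO series read 177, 84.1, 200 and 106 CPM in controls, 156, 170, 99.6 and 80.2 after 3 h, and 187, 103, 179 and 99.4 after 24 h. Only the KO DMSO value of 200 CPM reached into the WT range of 191 to 278 CPM, with a fitted log2 change of -0.70 (SE 0.15, adjusted p = 0.00371 by edgeR).

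The other called members were crygm2d1, at a log2 fold change of -0.59 (SE 0.13, edgeR adjusted p = 0.00492), crygm2d2 at -0.59 (SE 0.15, 0.0128), crygm2d21 at -0.61 (SE 0.16, 0.0141), crygm2d15 at -0.65 (SE 0.20, 0.0286) and the crygm2d9 row ENSDARG00000073750 at -0.57 (SE 0.18, 0.0360). For none of the 46 were all 12 KO libraries below all 12 WT libraries (0.222% of genes).

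The median difference was smaller without the 6 KO libraries apart. Summed crystallins were at 4066 to 5938 CPM in them, 7499 to 10893 CPM in the other 6 KO libraries and 6825 to 12009 CPM in WT. Without them, a fit to 18 libraries that was chosen after seeing the data called 1 crystallin lower (4.07% of genes called), the crygm2d8 row ENSDARG00000069817 with a log2 fold change of -0.33 (SE 0.08, edgeR adjusted p = 0.0264). Class medians were then -0.06 for beta and -0.08 for gamma, and cryaa had a log2 fold change of 0.30 (adjusted p = 0.206). Leaving out single libraries moved the count between 4 and 20: KO DMSO replicate 1 gave 17 and replicate 3 gave 20, KO 24 h replicate 1 gave 13 and replicate 3 gave 17, KO 3 h replicate 1 gave 12 and replicate 2 gave 14, and WT 3 h replicate 2 gave 11. The 6 KO libraries named here were all libraries not apart, so each removal weighted its KO group towards the libraries apart. The shares of all genes called in these fits are not given here, so the counts are not a result about crystallins alone. DESeq2 called 14 in the comparison over all libraries (17.4% of genes).

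The joint fit to WT replicates 1 and 2 and the 6 KO libraries not apart called 13 crystallins over the 3 treatments (9.99% of genes), all gamma members. Of them 12 were lower in KO, among them crygm2d1 with a log2 fold change of -0.46 (SE 0.06, edgeR adjusted p = 0.000516) and crygm2d2 with -0.45 (SE 0.05, adjusted p = 0.000227 by edgeR), and 1, crygs1, was higher at levels below 1 CPM. The same fit called 4 lower in KO in DMSO (0.907%), namely crygm2d1, crygm2d2, crygm2d3 and the crygm2d8 row ENSDARG00000069817, 0 at 3 h (0.409%) and 3 lower at 24 h (1.03%), which were these without crygm2d3. These calls come from a subset that holds 2 libraries a group and was chosen after seeing the data. With 1 set of libraries per genotype, a difference between the sets cannot be told apart from one of genotype. The p-values measure the spread within those sets. Same-numbered WT libraries of the treatments also deviated together, so the 6 libraries of a genotype may not be independent. The subset leaves out WT replicates 3 and 4 as well as the KO libraries apart. In WT DMSO the gamma sums were 4701 and 4310 CPM in replicates 1 and 2 and 3713 and 3257 CPM in replicates 3 and 4. The KO DMSO libraries not apart were at 3699 and 4070 CPM. At 3 h and 24 h the gamma sums of the WT sets overlapped, but a single called member could differ. In crygm2d2, WT replicates 1 to 4 were at 251, 218, 163 and 163 CPM in DMSO. At 3 h they were at 211, 192, 165 and 150 CPM, and at 24 h at 215, 240, 217 and 128 CPM. The 6 KO libraries not apart were at 149 to 174 CPM of crygm2d2. How far the choice of WT libraries made these calls was not tested. Class medians of this fit were 0.08 for beta and -0.17 for gamma.

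**Figure D5:**
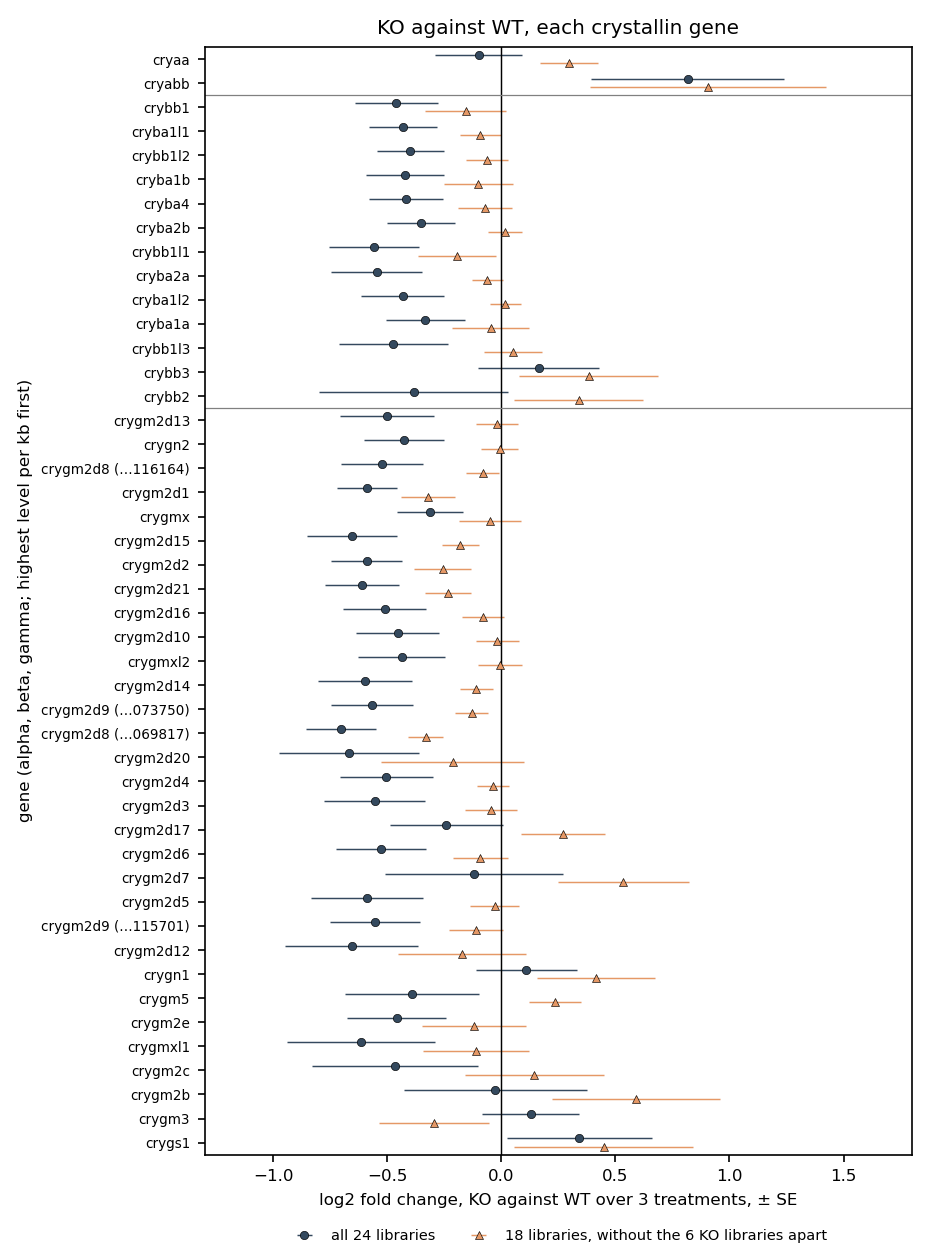
Log2 fold change (± SE) of each crystallin in KO against WT over the 3 treatments, with all 24 libraries (circles) and without the 6 KO libraries apart (triangles). Most circles lie near -0.5 and most triangles near 0, with the crygm2d8 row ENSDARG00000069817 at -0.70 and -0.33.

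The low level in the 6 libraries ran across beta and gamma members alike. All 6 lay below the other 18 libraries for 26 of 46 crystallins, 6 beta and 20 gamma (4.64% of genes), and above them for 0 (7.78%). Against the other 6 KO libraries alone the count was 36, with 1 alpha, 8 beta and 27 gamma members (16.4%). As a ratio of medians, apart over not apart, beta members of 1 CPM or more ranged from 0.353 to 0.549 with a median of 0.500 over 11, and gamma members from 0.248 to 0.630 with a median of 0.448 over 27. The ratio for cryaa was 0.441. The lowest ratio was that of crygm5 and the highest that of crygn1, a gamma N gene.

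The cryaa values show the layout in a single gene: KO DMSO replicates 1 and 3 were at 47.9 and 46.1 CPM and replicates 2 and 4 at 20.5 and 17.6 CPM. Likewise crygm2d13 was at 535 and 575 CPM in the former pair and at 176 and 229 CPM in the latter. The pair not apart reached or passed the WT DMSO level in both genes, so the KO group of 4 held both high and low pools.

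Other tissue markers moved with the same 6 libraries. Lens markers summed to 501 to 544 CPM there, 729 to 895 CPM in the other KO libraries and 659 to 941 CPM in WT, and photoreceptor and pigment epithelium markers to 3412 to 4390, 7945 to 9502 and 7268 to 10345 CPM in the same order. Heat shock genes ran the other way, at 634 to 1413, 507 to 606 and 380 to 511 CPM. Markers of the hatching gland, a tissue lost after hatching, were at 5.24 to 38.2 CPM in the libraries apart (5 rows, he1.3 at 0 in 20 of 24 libraries), 0.0319 to 1.51 CPM in the other KO libraries and 0.130 to 3.53 CPM in WT. Exocrine pancreas markers, which rise with age, summed to 4474 to 5380, 6410 to 9330 and 3674 to 10406 CPM. Within WT these markers were at 8682 to 10406 CPM in replicates 1 and 2 and at 3674 to 5680 CPM in replicates 3 and 4. Summed crystallins were at 6825 to 11640 CPM in the former WT set and at 9075 to 12009 CPM in the latter. The order of the WT sets differed by treatment. In DMSO, WT replicates 1 to 4 were at 11640, 10529, 10259 and 9075 CPM of summed crystallins. At 3 h they were at 7849, 6825, 9553 and 9938 CPM, and at 24 h at 10835, 11296, 12009 and 9442 CPM. The part of age or tissue makeup in the crystallin values was not tested.

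By gene, in KO against WT over the treatments, where 6.29% of all genes were called lower and 9.39% higher, 8 of 24 lens markers were called lower and 1, mafba, higher, with a median log2 fold change of -0.38; some of this list, such as pax6a, is also expressed in retina and brain. Of 17 tested photoreceptor and pigment epithelium markers 6 were called lower and 0 higher, among them the cone arrestin genes arr3a at -1.01 and arr3b at -0.96, with a median of -0.52. The heat shock list holds small heat shock genes, the family of the alpha crystallins, together with genes of other heat shock families. Of its 18 tested genes 10 were called higher and 0 lower, with a median of 0.47. Among those called were hsp70l at 1.92, an inducible chaperone gene outside the small heat shock family, and hspb1 at 0.96. Of the alpha crystallins, cryaa had a log2 fold change of -0.10 (SE 0.19) and cryabb was too low to read. Of 10 tested skeletal muscle genes 4 and of 8 tested cornea and skin genes 4 were called lower, and of 11 tested pancreas genes 1 was called higher. Of 2 tested hatching gland genes 0 were called, with 2 at an unadjusted edgeR p under 0.05 (29.2% of all tested genes). Skeletal muscle sums were at 25633 to 36364 CPM in the libraries apart, above all of the other 6 KO libraries at 22639 to 24718 CPM, and at 24642 to 33549 CPM in WT. Cornea and skin sums overlapped between the KO sets, at 5225 to 6897 and 5476 to 6411 CPM. The part of these tissues in the crystallin values was not tested.

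The third question is whether ML233 acted differently in KO than in WT. The difference of the responses called 0 crystallins at 3 h and 0 at 24 h (0% of genes in each), and DESeq2 called 0 in both. At an unadjusted edgeR p under 0.05 there were 0 crystallins in both, against 0.929% of all tested genes at 3 h and 1.14% at 24 h. Median differences were -0.0036 and -0.02, and the SE for a single crystallin had a median of 0.48 in both. A call needs a difference of several SE, so differences well above 0.48 could also go uncalled in these libraries. The members with the smallest p were cryabb at 3 h, at -1.11, and crygm2d3 at 24 h, at 0.64.

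Among well expressed members, a few of the crygm2d cluster varied most from pool to pool. Over the 24 libraries the highest level was 2.62 to 3.66 times the lowest for the 9 beta members of 10 CPM or more, and 2.65 to 16.7 times for the 23 such gamma members. The 3 members over 5 times were crygm2d7 at 16.7, crygm2d20 at 15.3 and crygm2d12 at 7.80. In crygm2d20 the WT DMSO replicates were at 44.7, 131, 38.8 and 34.8 CPM and the WT 24 h replicates at 36.1, 46.4, 28.5 and 103 CPM. In crygm2d7 the KO 24 h replicates were at 62.9, 14.7, 24.6 and 10.4 CPM.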

How the data were processed

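RNA was measured in 24 libraries of pooled whole embryos (poly(A) selection, dUTP second strand, paired-end Illumina, per the labels' protocols). The deposited values are counts per gene, not normalised; per the submitters' processing notes the tools named are HISAT2 2.0.5, StringTie, featureCounts, R 4.3.2 and DESeq2 1.42.1, with the GRCz11 build, and no roles are given. From these counts TMM factors, CPM and edgeR 4.0.16 quasi-likelihood fits (limma 3.58.1, R 4.3.3; 1 term per group, all 24 libraries, minimum count 10 by filterByExpr) were computed here, with Benjamini-Hochberg adjustment over 27010 genes in 12 comparisons and a threshold of 0.05. DESeq2 1.42.0 was an alternative, with RLE size factors, no count filter, leaving out libraries and replicate blocks. The fits were checked on simulated counts for WT at 3 h against DMSO. They called 54 of 100 changes of 2-fold and 94 of 100 of 4-fold, with 7 false calls in the whole run. Simulated libraries were drawn independently, without the sets seen within WT and KO, so recovery under those sets was not measured. Members and lists were chosen with earlier results of these data known. Members named are both alpha genes, the 4 highest per kb and 2 most variable of the beta and gamma classes, the 5 that rose and 5 that fell most among those called, and otherwise the smallest p; others were named after their values were seen. Replicate pairs of a group differed by more than sampling noise (chi-square per degree of freedom 4.26 to 142 over 36 pairs), so none was merged. Replicates are labelled biological, but separate clutches are not stated, so p-values measure the spread between these pools. Same-numbered WT libraries of different treatments deviated together (r from 0.319 to 0.548, median 0.457, in 12 pairs), which met the pairing rule of every r above 0.1. Other-numbered WT pairs ran from -0.591 to 0.612 (median -0.392) and were as high as same-numbered ones within replicates 1 and 2 or 3 and 4, so the numbers cannot be told apart from those 2 sets. The rule was not met in KO (lowest r -0.489, median 0.534) or between WT and KO of a treatment (lowest -0.585, median 0.190). No crystallin sequences were used here.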

Additional observations from a re-analysis of the deposited data

Results flagged for a closer look

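In 156 groups of 4 libraries, over 26 crystallin measures, 3 single libraries lay far from the others of their group. The rule used flags about 1 in 20 groups, or 7.8, where the 4 values of a group have no structure. Many groups here were divided by the sets described above, and class sums overlap with their own members. The figure of 7.8 is therefore not a chance count for these groups. Flagged were cryabb in KO DMSO replicate 1, at 0.925 CPM, crybb1 in KO 3 h replicate 1, at 724 CPM against 512 to 537 CPM, and crygm2d20 in WT DMSO replicate 2, at 131 CPM against 34.8 to 44.7 CPM.

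The count table also holds 8 unnamed loci described as crystallin genes, which the name rule did not take and no comparison used. All lie on alternate contigs, and 6 of them had counts. The highest, a locus of 8900 bases of model on an alternate contig of chromosome 9 (22186674 to 22331234), had a mean of 399 CPM, with 176 to 302 CPM in the 6 KO libraries apart and 343 to 535 CPM in the other 18. A locus on an alternate contig of chromosome 7 had a mean of 6.09 CPM and a locus on one of chromosome 1 had 0.887 CPM. The remaining loci, all on the alternate contig of chromosome 9, had means of 1.54, 0.639 and 0.251 CPM. How reads were divided between an alternate contig and its chromosome is not given in the sources used here.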

How the results depend on the processing

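Counts of crystallins called were 0 in every ML233, 24 h against 3 h and response-difference comparison under RLE size factors, no count filter, DESeq2, single libraries left out (0 to 0) and the replicate block within genotype, so a block for the WT numbers changed no call there. KO against WT over the treatments gave 6 (15.7% of genes called), 14 with DESeq2 (17.4%) and 1 without the 6 KO libraries apart (4.07%). A replicate block across genotypes, with numbers that do not pair KO with WT, gave 27 (19.3%). RLE factors gave 7 and single libraries left out gave 4 to 20, and the shares of genes for these fits are not given here. Best correlation was with the own number in 7 of 12 WT and 4 of 12 KO libraries. The fit to WT replicates 1 and 2 with the 6 KO libraries not apart was added after seeing the data. For KO against WT it gave 13 over the treatments (9.99% of genes), 4 in DMSO (0.907%) and 3 at 24 h (1.03%). At 3 h against DMSO it gave 11 for WT (0.328%) and 6 for KO (0.358%). For 24 h against 3 h it gave 10 for WT (0.317%) and 1 for KO (0.325%). Fits to single sets, likewise added, gave 14 (1.13%) and 15 (1.67%) for WT replicates 1 and 2 at 3 h and 24 h against 3 h. For the KO libraries not apart they gave 3 and 1 (0.123% in each). Sign turned for cryabb, KO minus WT response at 3 h, whose range with single libraries left out was -1.45 to 0.38 (without KO DMSO replicate 1), and for crybb1l1 in KO at 3 h, to 0.086 in the 6 libraries apart; neither was called, and the cause was not tested. Class medians, which carry no test, also changed sign with single libraries left out. Gamma medians ran from -0.33 to 0.15 in KO at 3 h, -0.16 to 0.30 in KO at 24 h, -0.07 to 0.15 in WT at 24 h and -0.04 to 0.37 in KO at 24 h against 3 h, and the beta median from -0.16 to 0.28 in KO at 24 h. For KO minus WT responses the beta median ran from -0.21 to 0.23 at 3 h and -0.25 to 0.18 at 24 h, and the gamma median from -0.23 to 0.28 and -0.20 to 0.25. The median SE of a log2 fold change, 0.34 between groups of 4, limits what these libraries can show.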
